A study of Mus musculus with 4 samples.

Results

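GATA2 occupancy was examined at 10 mouse genes of the FGF-ERK feedback circuit and of the PEA3 group of ETS transcription factors: Etv1, Etv4, Etv5, Spry2, Spry4, Spred1, Spred2, Nf1, Dusp6 and Dusp9, out of 21631 protein-coding genes on the chromosomes of the peak list. For each gene, every summit (the position of highest signal in a peak) inside the gene or within 100 kb of it was collected. Of the 10 genes, 5 had at least 1 summit and 5 had none, and 9 of the 995 summits of the list were collected in all. The genes had been proposed with this list in view, so they were chosen by the presence and fold of their summits, and these values are given as a description, with no test.

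The data came from CUT&Tag, in which an antibody on chromatin brings in the transposase Tn5, which inserts adapters into the DNA nearby. The germ cells were sorted with the BVSC reporter (Blimp1-mVenus and Stella-ECFP transgenes) from trypsin-digested ovaries of female fetuses at E13.5, obtained by crossing C57BL/6J females with BVSC males. A rabbit antibody against GATA2 was used in 2 libraries, the other 2 were inputs with no antibody, and all 4 carried the same reporter genotype and came from the same stage. GATA2 is a zinc finger transcription factor, and the study concerns its part in the exit of these cells from pluripotency and in the start of meiosis. The labels do not say whether the replicates came from separate litters. The deposited list is pooled over the GATA2 libraries, so no value belongs to 1 replicate, and a list of peaks gives no expression against which the labelled cell type could be checked.

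FGF ligands bind receptor tyrosine kinases, which activate RAS and, through RAF and MEK, the kinase ERK. Active ERK raises transcription of Etv1, Etv4 and Etv5 and of a set of inhibitors that turn the pathway down again: Sprouty proteins, SPRED proteins, which bring the RAS inactivator neurofibromin (Nf1) to the membrane, and phosphatases that remove the activating phosphates from ERK. In embryonic stem cells this pathway drives cells out of naive pluripotency, and FGF signalling also acts on germ cells of the fetal gonad.

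Over all 995 summits the median fold enrichment was 4.15, and 33 summits reached 10-fold or more. The fold is the peak caller's ratio of scaled signal to local background at the summit, with 1 added to both. The number of GATA2 fragments behind each summit was solved from the deposited fold and p, and its median was 9. A q (the p adjusted over the genome) of at most 0.05, which is a −log10 q of at least 1.30, was reached by 674 summits (67.7%). The 9 summits near the 10 genes had folds of 3.79 to 15.2 with a median of 4.86. Of these, 3 were at 10-fold or more and 8 had a q of at most 0.05.

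**Figure D1:**
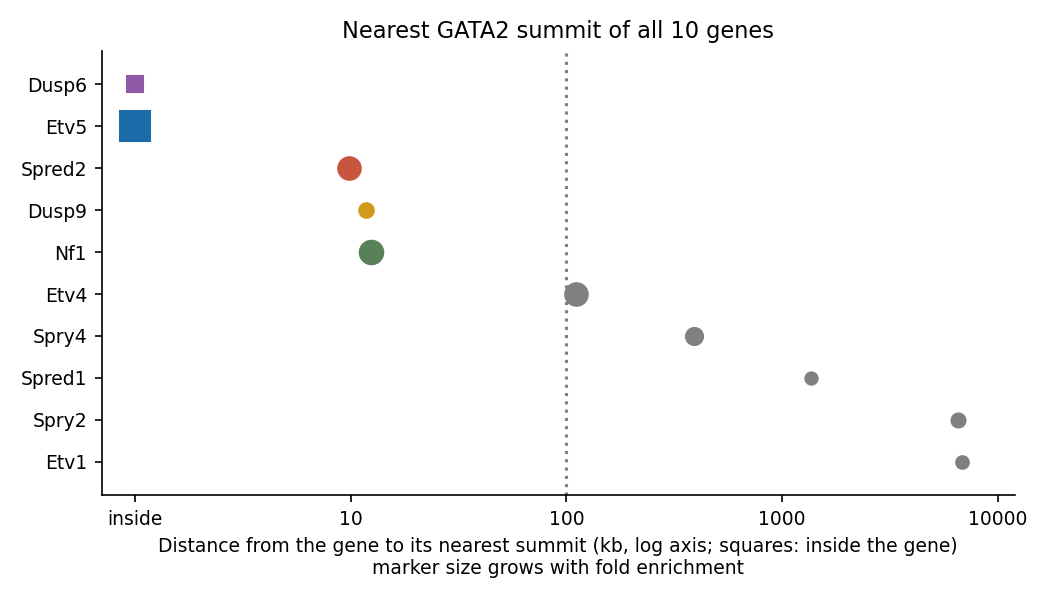
Distance from each of the 10 genes to its nearest GATA2 summit, in kb on a log axis, with squares for genes that hold a summit inside, larger markers for higher fold and a dotted line at 100 kb. Dusp6 and Etv5 hold a summit, Spred2, Dusp9 and Nf1 have one within 9.8 to 12.4 kb, Etv4 falls just beyond the line at 111.3 kb, and the other 4 genes lie 389.2 to 6829.7 kb away.

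The spread between the genes was wide, within families as well as between them. Among the members, the share with a summit was 1 of 3 PEA3 factors, 0 of 2 Sprouty genes, 2 of 3 among the SPRED genes and Nf1, and 2 of 2 phosphatase genes. These are not whole families. Of the Dusp, Spry and Spred relatives looked up among other inhibitors of the pathway, only Dusp1 had a summit. Dusp2, Dusp4, Dusp5, Dusp7, Dusp8, Dusp10, Spry1, Spry3 and Spred3 had none. For reading these counts, 14.9% of all protein-coding genes had a summit inside or within 100 kb. With windows of 50, 10 and 1 kb the members with a summit numbered 5, 3 and 2 of 10, against 9.68%, 4.6% and 3.25% of all genes. Summits with a −log10 q of 5 or more lay near 3 of the 10, against 3.1% of all genes. These values chose the genes, and nothing is read from the counts. Gene length enters that rule, since a longer gene spans more sequence. The 5 genes with a summit had a median length of 58.3 kb and the 5 without one 15.6 kb, against 17.3 kb for all protein-coding genes, and the part of length in the counts was not tested.

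Summits at start sites are shown first, since they are the only ones for which sequence could be read. RefSeq promoter windows (GRCm38.p6, 250 bases before to 50 bases after a start site) were matched for 7 of the 10 genes, in 9 windows, and 2 windows held a summit: that of Etv5 and that of Dusp6. Their 250 bases before the start site are printed 5′ to 3′ on the strand of the gene, as chr16:22439571-22439820 on the minus strand for Etv5 and chr10:99262981-99263230 on the plus strand for Dusp6. Capitals mark the core word GATA (printed TATC where it lies on the other strand) and the word CCAAT (printed backwards and complemented, as ATTGG, where it lies on the other strand), both searched on both strands. Words and GC content were counted over these 250 bases in every window.
Etv5: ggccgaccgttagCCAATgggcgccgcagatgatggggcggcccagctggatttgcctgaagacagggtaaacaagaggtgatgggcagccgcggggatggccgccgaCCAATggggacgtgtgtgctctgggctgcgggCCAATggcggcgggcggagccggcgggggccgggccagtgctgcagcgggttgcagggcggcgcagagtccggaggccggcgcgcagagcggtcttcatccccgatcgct
Dusp6: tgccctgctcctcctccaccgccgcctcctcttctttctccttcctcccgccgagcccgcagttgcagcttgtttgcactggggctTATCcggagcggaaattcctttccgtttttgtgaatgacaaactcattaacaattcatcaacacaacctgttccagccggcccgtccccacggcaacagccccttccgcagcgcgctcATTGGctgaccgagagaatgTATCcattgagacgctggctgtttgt

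The Etv5 summit lies at base 65 of its printed sequence, 186 bp before the start site. The Dusp6 summit lies at base 244, 7 bp before the start site. The longer GATA word TGATAA, counted also with A as its first letter or G as its last, contains the core. It was in 0 of the 9 windows of these genes on either strand, in 26.5% of all 32851 windows and in 28.6% of the 234 windows that held a summit. The core GATA alone was in 2 of the 9 windows, against 53.6% of all windows and 62.8% of those with a summit. Each of these 2 windows held 2 copies, and the one of Etv1 held no summit. Windows with 2 or more copies were 24.2% of all windows and 19.7% of those with a summit. Dusp6 held the core 2 times, and the copy at bases 225 to 228 ends 16 bases from the summit. Etv5 had no GATA core in these bases, where GC content was 71.2%, against 56.4% in Dusp6 and a median of 52.4% over all windows.

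The word CCAAT, bound by the factor NF-Y at many start sites, was counted after the sequences had been read. Etv5 held it 3 times, at 44 to 76 bases from the summit, and Dusp6 once, 35 bases from the summit. At least 1 copy was in 3 of the 9 windows of these genes (33.3%), in 33.8% of all windows and in 57.3% of those that held a summit. Windows with 3 or more copies, the number seen in Etv5, were 1 of the 9, 2.79% of all windows and 23.9% of those that held a summit. GC content also differed between these sets, with medians of 52.4% and 60%, and its part in the shares was not tested. A match of letters is a description of the window and does not mark a binding site.

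Among the PEA3 factors, which are ETS activators induced by ERK, only Etv5 had summits under this rule. It had 3, which differed in strength. The strongest, at chr16:22431928-22432331 with its summit at 22432111, lay inside the gene, 7459 bp downstream of one listed start site and 6257 bp downstream of the other. It had a fold of 15.2 on 41 fragments (95% Poisson interval 29.4 to 55.6) and a −log10 q of 24.2, and ranked 7th of 995 by fold. Its interval was 404 bp wide, against a median of 332 bp for the list, so its height was not matched by an unusual width (rank 333 of 945 intervals).

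The start-site summit of Etv5, in chr16:22439625-22440019 with the sequence shown above, was far weaker, with a fold of 3.92 on 9 fragments (4.12 to 17.1). Its −log10 q of 0.91 missed the threshold. The third, at 22517545, lay 78.0 kb upstream and had a fold of 3.79 on 8 fragments (3.45 to 15.8) and a −log10 q of 1.75. It lay inside Dgkg, a diacylglycerol kinase gene, and a long noncoding RNA gene, 9230117E06Rik, which were thus nearer to it than Etv5. The Poisson interval of the strongest summit did not overlap those of the other 2.

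**Figure D2:**
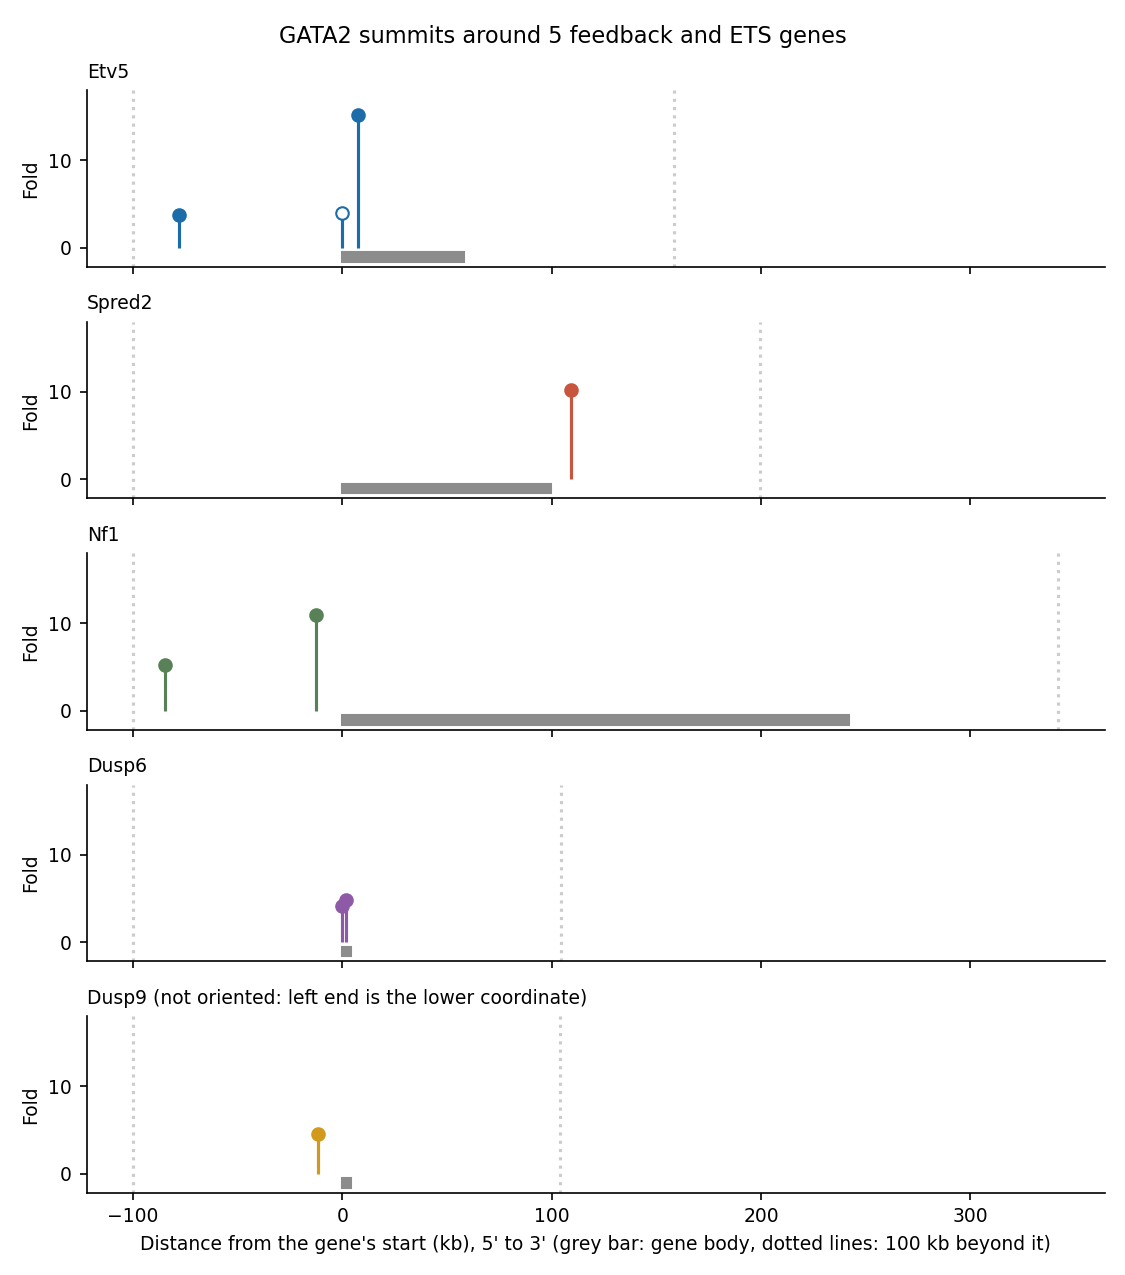
GATA2 summits around the 5 genes that had one, drawn 5′ to 3′ in kb from the gene's start (Dusp9 in order of coordinate), with stem height as fold enrichment, grey bars for gene bodies, dotted lines 100 kb beyond them and open circles for a q above 0.05. The tall stems of Etv5 (15.2-fold), Nf1 (10.9-fold) and Spred2 (10.2-fold) stand inside, upstream and past the far end of their genes, while the start-site summits of Etv5 and Dusp6 are near 4-fold.

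Etv4 had no summit by the rule but only narrowly. Its nearest, at position 101658493 of chromosome 11, lay 111.3 kb away and was strong, with a fold of 10.2 on 26 fragments (17.0 to 38.1) and a −log10 q of 12.9 in an interval of 704 bp. The nearest protein-coding gene there was Arl4d, which encodes a small GTPase, at 7.0 kb. Just inside the limit were the Nf1 summit at 84.9 kb (5.27-fold) and the Etv5 summit at 78.0 kb (3.79-fold). Etv1 lay 6829.7 kb from the nearest summit, a weak one inside Hbp1 (3.08-fold on 6 fragments, −log10 q 0.30).

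The Sprouty genes encode inhibitors that act on the pathway upstream of ERK, and neither Spry2 nor Spry4 had a summit. Their relatives Spry1 and Spry3, looked up among the other inhibitors, had none either. Spry4 was 389.2 kb from the nearest one, which lay inside Arhgap26 (6.28-fold on 15 fragments). Spry2 was 6551.7 kb from the nearest, which lay 26.9 kb from Klf5 (4.07-fold on 9 fragments). The list holds only called peaks, so weaker signal at these genes, if any, is not shown by it.

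Spred2 and Nf1 encode proteins that act together on RAS, and each had a summit above 10-fold outside the gene. The Spred2 summit, at 20033783 in chr11:20033652-20034316, lay 9.8 kb past the 3′ end of the gene and 109.3 kb downstream of its start site. It had a fold of 10.2 on 26 fragments (17.0 to 38.1) and a −log10 q of 12.9, and ranked 26th by fold. Spred2 was the nearest protein-coding gene, but the summit lay inside the long noncoding RNA gene Gm39603. Spred1, a paralogue of Spred2, was 1357.3 kb from the nearest summit, which had a fold of 2.81 on 6 fragments. Spred3, another paralogue outside the members, was 278.0 kb from its nearest summit.

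The stronger Nf1 summit, at 79327197 in chr11:79326951-79327623, lay 12.4 kb upstream of the gene. It had a fold of 10.9 on 28 fragments (18.6 to 40.5) and a −log10 q of 15.0, ranking 16th. Nf1 was the nearest protein-coding gene, with the long noncoding RNA gene Gm30561 nearer, at 1.09 kb. The weaker summit, at 79254704, lay 84.9 kb upstream and inside Wsb1, which encodes a subunit of a ubiquitin ligase. Its fold was 5.27 on 13 fragments (6.92 to 22.2) and its −log10 q 2.16. The Spred2 and stronger Nf1 intervals, 665 and 673 bp wide, ranked 93rd and 89th of 945 in width and were wider than that of the strongest Etv5 summit.

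Both phosphatase genes among the members had summits, with folds of 4.15 to 4.86 against a list median of 4.15. Dusp6, which encodes a cytoplasmic phosphatase of ERK and is itself a common readout of ERK activity, had 2 summits 1.96 kb apart. The first, in chr10:99263063-99263501, was the start-site summit shown above, with a fold of 4.15 on 9 fragments (4.12 to 17.1) and a −log10 q of 1.75. The second, at 99265181, lay inside the gene, 1950 bp downstream of the start site, with a fold of 4.86 on 11 fragments (5.49 to 19.7) and a −log10 q of 3.37. Their Poisson intervals overlapped over most of their length, and the difference between them was not tested. No other protein-coding gene was nearer to either.

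Dusp9, an X-linked gene for a related phosphatase, had 1 summit, at 73627616 in chrX:73627465-73627702. It lay 11.8 kb from the gene, on its side of lower coordinate and inside the long noncoding RNA gene Gm46680. It had a fold of 4.50 on 10 fragments (4.80 to 18.4) and a −log10 q of 1.75. Its surroundings were denser in genes than those of the others, with 6 protein-coding genes within 100 kb of the summit against 2 for each of the other 8 summits.

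**Figure D3:**
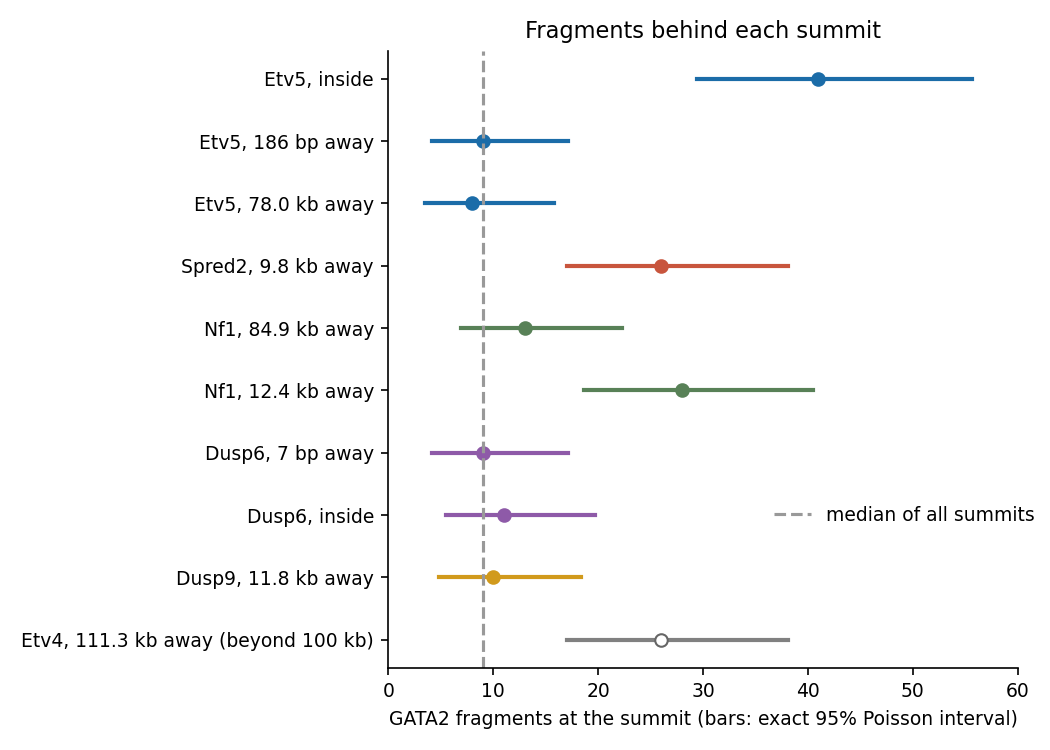
GATA2 fragments at each of the 9 summits and at the one nearest Etv4, with exact 95% Poisson intervals as bars and the list median of 9 fragments as a dashed line. The intervals of the strongest Etv5 summit (41 fragments), the stronger Nf1 summit (28) and the Spred2 summit (26) lie above the median, and those of the other 6 near the genes span it.

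The start-site summits of Etv5 and Dusp6 had 9 fragments each, yet only that of Dusp6 reached a q of 0.05. Their local backgrounds, solved from fold and p like the fragment numbers, differed, at 0.122 for Etv5 and 0.0608 for Dusp6. These are in units of the caller's scaled signal. The value 0.0608 was the most frequent in the list and was taken as the genome-wide level. The background was above the genome-wide level by more than 1% at 3 of the 9 summits, namely the inside and start-site summits of Etv5 and the weaker one of Nf1, and at 29.9% of all 995. The raised background at the strongest Etv5 summit was 0.0812. The same −log10 p of 6.27 was given to the Etv5 summit with 8 fragments, the Dusp6 summit with 9 and the Dusp9 summit with 10, because the caller takes the whole part of the scaled signal. Differences of 1 or 2 fragments between weak summits therefore need not show in p or q. The intervals cover counting error only, and the libraries' spread is not in them.

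**Figure D4:**
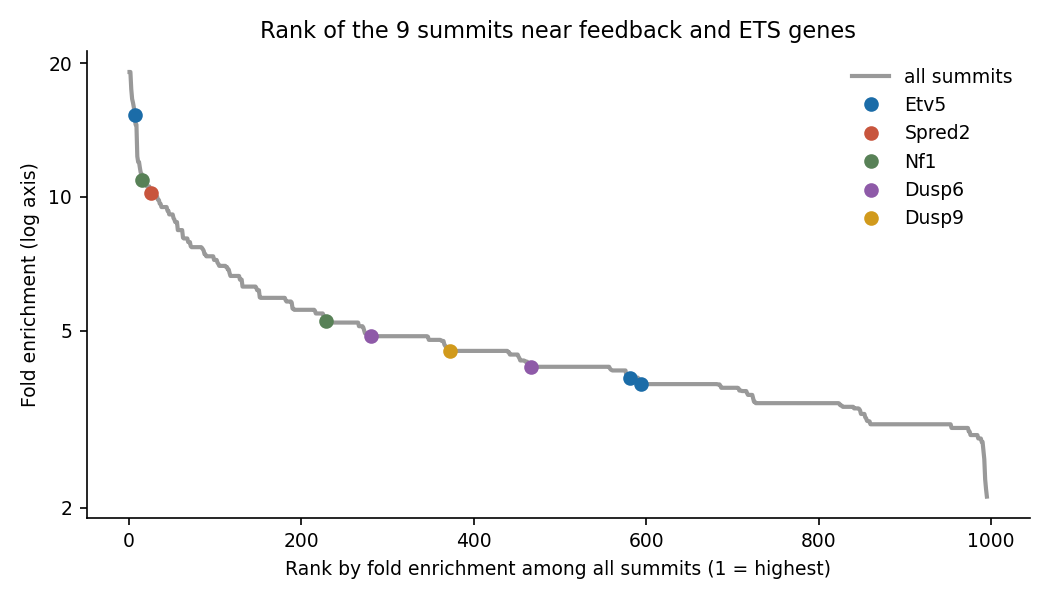
Fold enrichment on a log axis against rank for all 995 summits (grey line), with the 9 summits near the 10 genes as coloured points. The summits of Etv5 (7th), Nf1 (16th) and Spred2 (26th) stand on the steep part of the curve, and the other 6 lie between rank 229 and rank 594.

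For the rest of the pathway, 113 other genes in 6 lists were looked up in the same way. A summit was inside or within 100 kb of 24 of them (21.2%), against 14.9% of all protein-coding genes. With summits of q at most 0.05 the count was 19 (16.8%), against 10.2%. As the nearest protein-coding gene to a summit, 11 were counted (9.7%), against 3.86% of all genes. These genes had 37 different summits with a median fold of 4.20, close to the list median. Cic and Erf are neighbours and share 4 of them, and the median length of the 113 genes was 18.6 kb.

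The list of adaptors, RAS, RAF, MEK and ERK had the largest share of the 6, with 8 of 24 genes, and 6 with a q of at most 0.05. Map2k2, which encodes the kinase MEK2, had a pair of summits in 1 interval inside the gene, 412 and 663 bp downstream of a start site (4.07-fold and 5.47-fold, −log10 q 1.55 and 2.98). A stronger summit 43.0 kb upstream of it (9.13-fold on 23 fragments) was nearest to Sgta, and one of 4.86-fold lay inside Zbtb7a. Sos1, an exchange factor that loads RAS with GTP, had a strong summit 25.4 kb upstream (9.49-fold on 24 fragments, −log10 q 12.9), for which Cdkl4 was nearer, and a weak one 2.6 kb upstream (3.02-fold, −log10 q 0.23), to which Sos1 was nearest. Rps6ka2, encoding a kinase activated by ERK, had one inside the annotated gene, 266 bp upstream of its listed start site (4.15-fold). Ptpn11, which encodes the phosphatase SHP2, and Araf each had one of 3.79-fold on 8 fragments, at 30.7 and 5.2 kb.

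**Figure D5:**
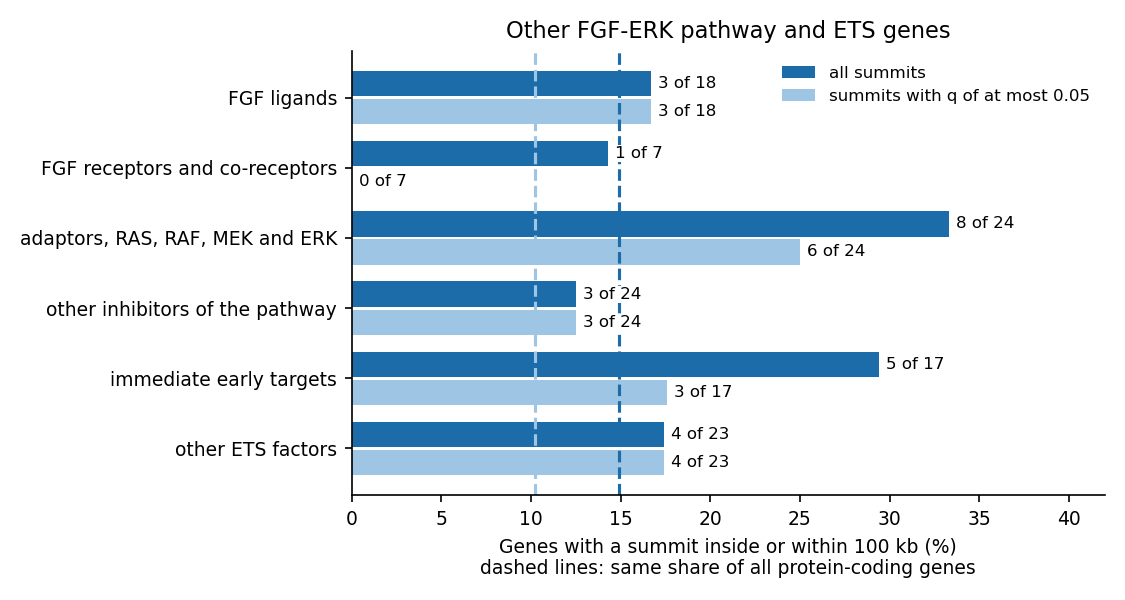
Share of genes in 6 further lists with a summit inside or within 100 kb, for all summits (dark bars) and for those of q at most 0.05 (light bars), with the same shares of all protein-coding genes as dashed lines (14.9% and 10.2%). The adaptor, RAS, RAF, MEK and ERK list (8 of 24) and the immediate early list (5 of 17) reach furthest past the dark line, and the lists of other inhibitors (3 of 24) and of receptors (1 of 7) stay below it. Against the light line, the other inhibitors (3 of 24) lie above and the receptors (0 of 7) below.

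Of 17 immediate early targets, which ERK signalling induces without new protein synthesis, 5 had a summit and 3 had one with a q of at most 0.05. Egr2, a zinc finger factor gene, was 75.5 kb from a summit of 10.9-fold on 28 fragments, the same values as at the stronger Nf1 summit. It was the nearest protein-coding gene to that summit, but the long noncoding RNA gene Gm51825 was nearer, at 16.7 kb. Fos, which encodes a partner of JUN proteins in the factor AP-1, had one 18.5 kb upstream (4.50-fold) and a weaker one 1467 bp upstream (3.44-fold, −log10 q 0.30). The more distant of these lay inside the long noncoding RNA gene Gm38543. Maff had one 24.6 kb away, inside Pla2g6 (4.86-fold).

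Other inhibitors of the pathway had summits in 3 of 24 cases, each with one of q at most 0.05 and each at 4.50-fold or less. Cic encodes the repressor of Etv1, Etv4 and Etv5 that ERK signalling relieves. It had a pair of summits in 1 interval inside the gene, 182 and 394 bp downstream of a start site, both 4.50-fold on 10 fragments with a −log10 q of 1.75. Dusp1, a nuclear phosphatase gene, had a summit 260 bp upstream of its start site that did not reach the threshold (3.02-fold, −log10 q 0.23) and one 72.1 kb away inside Neurl1b (4.15-fold). The summit of Rasal1 (3.79-fold, 35.2 kb away) lay 225 bp from Rita1.

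Of 18 FGF ligand genes, 3 had a summit and in each case another gene held it. The summits near Fgf1 (6.28-fold and 7.35-fold, 61.0 and 63.5 kb away) lay inside Arhgap26, those near Fgf22 (6.28-fold and 6.64-fold) inside Fstl3, and those near Fgf21 (5.01-fold and 4.65-fold) inside Mamstr. The first Fgf1 summit is also the nearest to Spry4. Among 7 receptor and co-receptor genes only Fgfr4 had one, at 21.7 kb, with a fold of 3.44 and a −log10 q of 0.30. Nsd1 was nearer to that summit, at 19.3 kb.

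Among 23 other ETS factor genes, 4 had a summit. Elf2 had one inside the gene (4.15-fold on 9 fragments), 755 bp downstream of a start site, and a strong one 95.6 kb away (10.7-fold on 31 fragments). Noct was nearer to the strong one, and the long noncoding RNA gene Gm35891 nearer still, at 28.2 kb. The 4 summits within 100 kb of Erf, an ETS repressor gene that ERK inactivates at the protein level, were the ones shared with Cic, the nearest at 4.5 kb. The summits near Spi1 (4.50-fold, 79.5 kb) and Spdef (5.12-fold, 48.6 kb) lay inside Nr1h3 and Pacsin1.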

How the data were processed

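CUT&Tag with a GATA2 antibody (2 libraries) and inputs (2) from sorted germ cells at E13.5 gave 1 peak list. The deposited fold enrichment (a linear ratio), −log10 p and −log10 q and display score are the peak caller's, pooled over the GATA2 libraries, as the peak names say. Per the submitters' processing notes, the tools were MACS2 2.2.6, Bowtie2 2.3.5.1, Trimmomatic 0.39, Picard 2.23.0, bedtools 2.29.2 and SAMtools, with the build GRCm38 (mm10). Their parameters, and which libraries were the control, were not given in the sources used here.

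Here, summits were placed (1-based) against RefSeq genes of GRCm38.p6 and its promoter windows with Python 3.11.15. Distances run to the gene body, 0 inside. The table gives no exons, so introns and UTRs could not be told apart. Library totals are unknown. Fragment numbers and local backgrounds were solved from fold and p, assuming MACS2's Poisson tail, taken at the integer part of the scaled signal. A scale of 0.378 gave whole numbers at all 995 summits, within 0.000107 (0.05 was allowed). The solving step was also run on simulated data. Those data were made with the same assumed formula, so they cannot show whether it holds for the deposited values. The exact 95% intervals hold counting error alone and would treat any remaining PCR duplicates as separate fragments. No test was run.

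The members and lists were chosen with earlier results of these data known. All 10 members were named, other listed genes where they had a summit of q at most 0.05, and genes nearer to a member's summit. Fgfr4, the Etv4 neighbour Arl4d, the genes nearest to the other members without a summit and the word CCAAT were added after values or sequences were seen. So were the Dusp, Spry and Spred relatives without a summit, and the long noncoding RNA genes near the summits of Egr2, Fos and Elf2. Nsd1, nearer to the Fgfr4 summit, was also added then. The values of 1 other listed gene are not reported here.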

Additional observations from a re-analysis of the deposited data

How the results depend on the processing

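The number of genes with a summit, 5 of 10 as reported, stayed at 5 within 50 kb, with 1 summit per interval, with summits of q at most 0.05, with nearest genes only and with intervals in place of summits. It fell to 3 within 10 kb, 2 within 1 kb and 3 at a −log10 q of 5 or more (Etv5, Spred2 and Nf1). The 9 summits became 5, 4 and 3 under these same settings. The 24 other pathway and ETS genes became 10, 6 and 6, and 11 with nearest genes only. Of all protein-coding genes, 14.9% had a summit as reported, with 1 summit per interval and with intervals in place of summits. The share was 9.68% within 50 kb, 10.2% with summits of q at most 0.05 and 3.86% with nearest genes only. It was 4.6% within 10 kb, 3.25% within 1 kb and 3.1% at a −log10 q of 5 or more. These settings leave fewer summits or shorter windows by construction. Among the 5 genes with a summit, 29 of 40 counts of summits per gene moved by no more than 1.5 times and 11 by more. The genes with 0 summits could hardly move, since nearly all of the settings only remove summits. No paired analysis was possible because the list is pooled over replicates, and for the same reason no replicate could be left out. GATA words around the summits outside promoter windows were not searched, since no genome was used here. The median was 9 fragments per summit, a count whose Poisson interval runs from 4.12 to 17.1. Differences between weak summits were not tested.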
